A study of Mus musculus with 57 samples.

Results

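The genes described here are 10 genes of the endoplasmic reticulum (ER) stress response and the integrated stress response, chosen by symbol: Atf4, Ddit3, Atf3, Trib3, Chac1, Asns, Xbp1, Hspa5, Dnajc3 and Herpud1. All 10 were found among the 16475 genes of each strain's table, 1 row per gene, and the authors' column that marks genes above their baseline said yes for each in each table. The study measured RNA from whole kidneys of 3 lupus-prone mouse strains on 57 Affymetrix arrays, 1 per sample. In such mice, immune complexes lodge in the glomerulus and nephritis with proteinuria follows. NZB/W kidneys fell into 4 groups. These were prenephritic mice of 16 weeks (n = 8), mice of 23 weeks that were non-proteinuric (n = 11), mice of 23 weeks whose proteinuria had just begun (n = 6) and nephritic, proteinuric mice of 36 weeks (n = 10). NZM2410 kidneys came from prenephritic mice, titled young (n = 5), and nephritic mice, titled sick (n = 5). NZW/BXSB kidneys came from prenephritic (n = 6) and nephritic (n = 6) mice, and no age is stated for either of these strains. No treatment or engineered allele is named for any group. For the 36-week group 1 label field says prenephritic and another says nephritic, and the second was followed. In NZB/W, age and stage of disease differ together between 16 and 36 weeks.

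Levels are log2 values as the authors deposited them, and each strain had its own table, so a level is set only against levels of the same gene in the same strain. A change is a difference of log2 group means ± standard error from limma, and a gene was called, and is said to have risen or fallen, where its p-value adjusted over all 16475 genes was under 0.05. The labels do not state that each array is a different mouse. The p-values therefore rest on the variation among arrays, which may be technical, and precision is set by how many arrays there were. In whole-kidney RNA, fewer cells of a type and less RNA per cell cannot be told apart. Umod, the uromodulin gene of the thick ascending limb, had group means of 13.43 to 13.70 in NZB/W. They were 13.84 and 14.01 in NZM2410 and 13.80 and 13.81 in NZW/BXSB. Of 5 defining kidney genes, Umod among them, 3 fell in NZB/W at 36 against 16 weeks, where 15.3% of all genes did. In nephritic against prenephritic kidneys 3 fell in NZM2410 (13.8% of all genes) and 1 in NZW/BXSB (8.73%). Slc34a1 changed by -1.05 in NZB/W and -1.24 in NZM2410, and Lrp2 by -0.97 and -1.02.

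Cells answer misfolded protein in the ER, amino acid shortage, viral RNA and haem shortage through kinases that phosphorylate the translation factor eIF2alpha. General translation then falls while translation of the transcription factor ATF4 rises, and ATF4 drives genes of amino acid supply and a second tier of regulators. Where misfolded protein in the ER is the trigger, this path is 1 arm of the unfolded protein response. The other arms work through the sensors IRE1 and ATF6 and the transcription factor XBP1. They raise chaperones and the machinery that removes misfolded proteins. ATF4 and XBP1 are set largely after transcription, by translation and by splicing of the Xbp1 transcript, and an array with 1 row per gene measures neither. Kidney tubule cells and antibody-secreting plasma cells are both known for a large load of secreted or membrane protein.

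The promoters of these genes were searched for elements known from these arms. RefSeq windows of 300 bases on GRCm38.p6, 250 before to 50 after the annotated start, were found for all 10 genes, and 4 motifs were searched on both strands. The C/EBP-ATF response element, searched as TGATGNAA, is the element that ATF4 binds with C/EBP proteins, and 5 of the 10 windows held it, against 3.97% of all 32851 windows. It is printed in capitals for 4 genes, on the opposite strand in Atf3, Chac1 and Herpud1, so that its reverse complement is seen there.
Asns, chr6:7693210-7693247, minus strand, element from -23 to -16: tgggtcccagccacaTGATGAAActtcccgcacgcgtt
Atf3, chr1:191183421-191183458, minus strand, element from -110 to -103: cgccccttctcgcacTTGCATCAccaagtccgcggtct
Chac1, chr2:119351034-119351071, plus strand, element from -193 to -186: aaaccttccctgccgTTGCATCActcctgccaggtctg
Herpud1, chr8:94386302-94386339, plus strand, element from -112 to -105: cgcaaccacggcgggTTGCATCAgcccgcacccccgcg
In Trib3 the element lay after the start, at 15 to 22, and is not printed. The ER stress response element, searched as CCAAT and CCACG with 9 bases between them, was held by 2 of the 10 windows, against 0.119% of all windows. Both belong to chaperone genes, and capitals mark the 2 outer blocks.
Hspa5, chr2:34772010-34772058, plus strand, element from -65 to -47: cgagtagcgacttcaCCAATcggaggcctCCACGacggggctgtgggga
Dnajc3, chr14:118937812-118937860, plus strand, element from -105 to -87: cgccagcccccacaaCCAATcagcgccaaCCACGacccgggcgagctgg
The letters TGACGTGG and TGACGTCA, the cores of the unfolded protein response element and the cAMP response element, were in 0.676% and 1.79% of all windows and in none of these 10. The windows of Atf4, Ddit3 and Xbp1 held none of the 4 motifs. A match is a description of these letters and not a measured binding site.

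**Figure D1:**
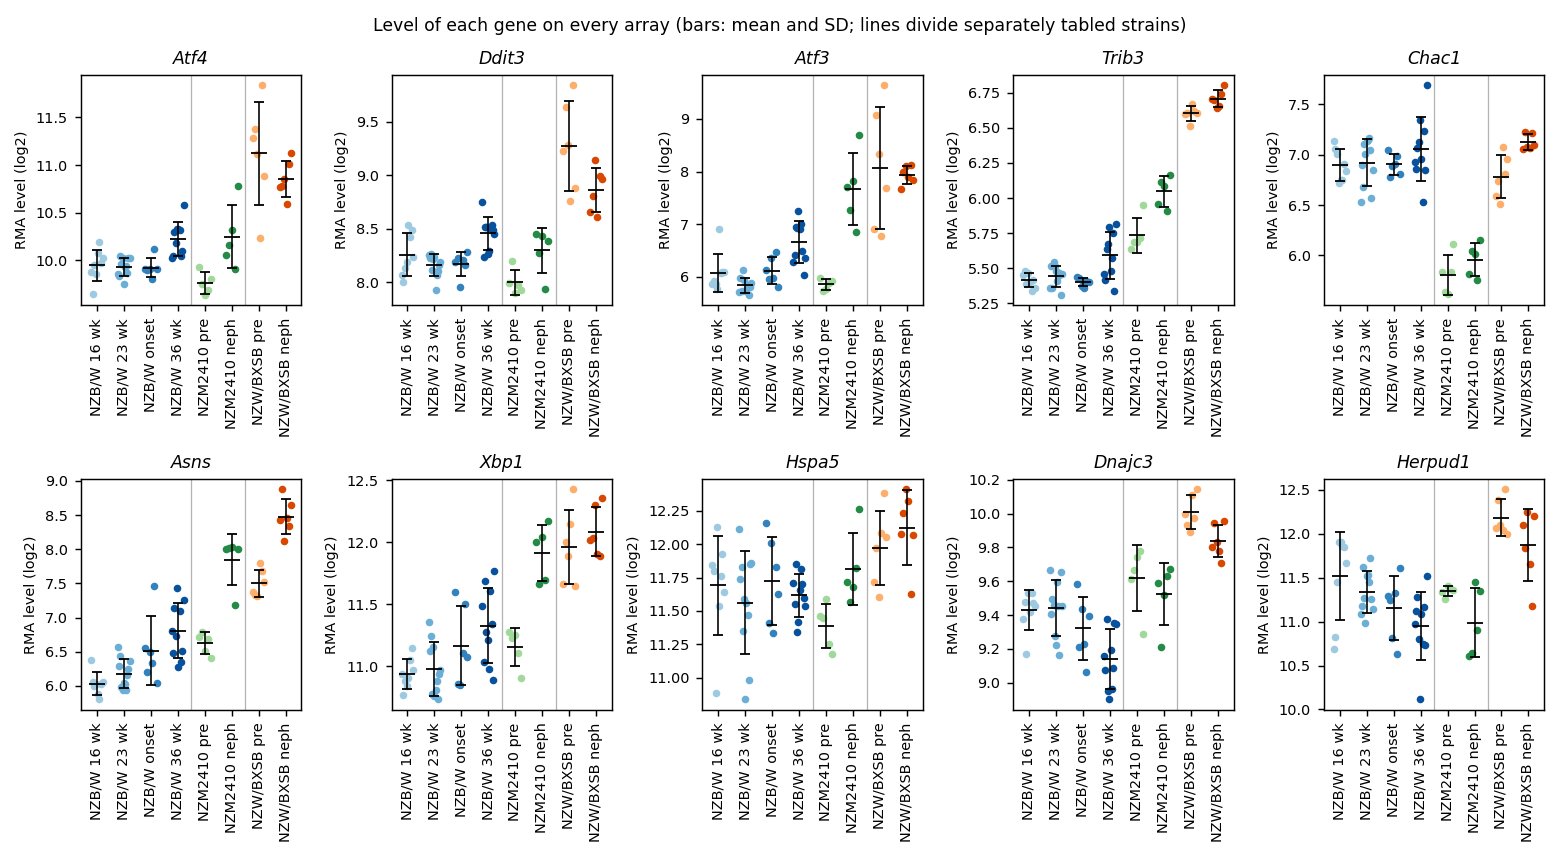
Log2 level of each of the 10 genes (vertical axes) on every array, in the 8 groups (horizontal axes), with black bars for the group mean and SD and grey lines between strains whose tables may have been normalized separately. Asns is higher in nephritic kidneys of all 3 strains, while Atf3 in prenephritic NZW/BXSB kidneys spreads from 6.77 to 9.64.

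In NZB/W, nephritic kidneys at 36 weeks were set against prenephritic kidneys at 16 weeks, the widest age span within that strain. Of the 10 genes 6 rose (Asns, Atf3, Xbp1, Atf4, Ddit3 and Trib3) and 2 fell (Herpud1 and Dnajc3), where 11% of all genes tested rose and 15.3% fell. The median change of the 10 was 0.19, and that of all genes was -0.01. The 2 that fell act at the ER membrane and in its lumen, and of the 6 that rose, Xbp1 alone belongs to the IRE1 and ATF6 arms. The groups overlapped for each of the 10 genes, a trait not counted over all genes.

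Atf4 encodes the central transcription factor of the integrated stress response. Its level ran from 9.65 through a median of 9.97 to 10.19 at 16 weeks and from 10.03 through 10.24 to 10.58 at 36 weeks. Each of the 10 nephritic samples lay above the 16-week mean, and the change was 0.27 ± 0.07 (adjusted p = 0.00246).

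Ddit3 encodes CHOP, a factor induced by ATF4 that is tied to cell death under prolonged stress. It ran from 8.0 through 8.21 to 8.53 at 16 weeks and from 8.23 through 8.50 to 8.75 at 36 weeks. Its change of 0.20 ± 0.07 just passed (adjusted p = 0.0321), with 9 of 10 nephritic samples above the earlier mean. The call was lost with array weights (change 0.07, adjusted p = 0.503) and on leaving out any of 16-week replicates 1, 2, 3, 4 and 8 or 36-week replicates 1 and 4 (0.0523 to 0.0837).

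Atf3, a stress-inducible repressor and activator of the same family, ran from 5.77 through 5.99 to 6.91 at 16 weeks and from 6.03 through 6.70 to 7.25 at 36 weeks. It rose by 0.59 ± 0.14 (1.5-fold, adjusted p = 0.00175). The value of 6.91 belongs to 16-week replicate 5, and the other 7 samples of that group lay at or below 6.09.

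Trib3, a pseudokinase gene induced by ATF4 and CHOP that dampens both, was at 5.34 to 5.48 at 16 weeks (median 5.41) and at 5.34 to 5.81 at 36 weeks (median 5.61). The change was small, 0.18 ± 0.05, and passed (adjusted p = 0.00814). It no longer passed with a random block for samples whose titles carry a common code (0.16, adjusted p = 0.0725) or with the 2 groups fitted alone (adjusted p = 0.0519). Chac1, a glutathione-degrading enzyme downstream of ATF4, had a change of 0.16 ± 0.11 that did not pass (adjusted p = 0.29).

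Asns encodes asparagine synthetase, a standard target gene of ATF4 whose element stands in the sequence printed above. Its level ran from 5.80 through 6.03 to 6.38 at 16 weeks and from 6.28 through 6.76 to 7.44 at 36 weeks. All 10 nephritic samples were above the 16-week mean, and 16-week replicate 1 was above the lowest nephritic sample. The rise was 0.78 ± 0.15 (1.72-fold, adjusted p = 0.000257), and it passed under each of the alternatives run, with adjusted p of at most 0.0260.

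Xbp1, the transcription factor gene of the IRE1 arm, ran from 10.77 through 10.92 to 11.14 at 16 weeks and from 10.89 through 11.31 to 11.77 at 36 weeks. It rose by 0.39 ± 0.11 (adjusted p = 0.0098). Xbp1 is also needed by plasma cells, and of 10 plasma cell markers, a list that holds Xbp1, 9 rose, led by the antibody chain genes Igkc (3.96) and Jchain (3.71). The mean level of that list was 7.20 to 8.34 on the 16-week arrays and 8.36 to 10.13 on the 36-week arrays, and its part in the change of Xbp1 was not tested.

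Hspa5 encodes BiP, the main chaperone of the ER lumen and the usual readout of ER stress. It ran from 10.89 through 11.78 to 12.13 at 16 weeks and from 11.34 through 11.63 to 11.85 at 36 weeks, so the later group lay within the earlier one. Its change was -0.07 ± 0.15 and did not pass (adjusted p = 0.764).

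Dnajc3 encodes p58IPK, a partner of BiP in the ER lumen that also restrains eIF2alpha kinases, and its promoter holds the same element as that of Hspa5. It was at 9.17 to 9.53 at 16 weeks (median 9.46) and at 8.90 to 9.38 at 36 weeks (median 9.12). All 10 nephritic samples lay below the 16-week mean, and the gene fell by 0.29 ± 0.08 on the log2 scale (adjusted p = 0.00505).

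Herpud1 encodes an ER membrane protein that organises the degradation of misfolded proteins and is induced by ER stress in cultured cells. It ran from 10.69 through 11.76 to 11.91 at 16 weeks and from 10.12 through 11.03 to 11.52 at 36 weeks. It fell by 0.57 ± 0.17 on the log2 scale (adjusted p = 0.0119), with 9 of 10 nephritic samples below the 16-week mean. The fall was 0.35 after quantile normalization (adjusted p = 0.0541), 0.40 with the shared title code as a random block (adjusted p = 0.13) and 0.29 with the 3' minus 5' signal of the Gapdh control, a measure of RNA integrity, as a covariate (adjusted p = 0.25). That signal was 0.0152 ± 0.0961 (SD, n = 8) at 16 weeks and 0.204 ± 0.192 (n = 10) at 36 weeks.

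The 16-week group was itself uneven. Its replicates 5 to 8 share a code in their titles, which onset replicate 6 also carries. The other 4 arrays of the group lack that code, and the titles of replicates 2 and 3 both hold the letters YM. Herpud1 was at 10.69, 10.82, 11.45 and 11.90 in replicates 1 to 4 and at 11.91, 11.86, 11.85 and 11.67 in replicates 5 to 8. Ddit3 was at 8.07, 8.0, 8.13 and 8.19 in the former and at 8.53, 8.43, 8.49 and 8.23 in the latter. The immediate early gene Fos, which is induced within minutes of a stimulus, was at 5.94 to 7.71 in the former and at 9.16 to 9.81 in the latter. Against replicates 5 to 8 alone, an alternative chosen after the values were seen, 4 of the 10 genes passed: Asns (0.87, adjusted p = 0.00235), Trib3 (0.21, adjusted p = 0.0188), Herpud1 (-0.87, adjusted p = 0.00105) and Dnajc3 (-0.33, adjusted p = 0.0137). Against replicates 1 to 4 alone, 1554 of all 16475 genes were called, the lowest count of the alternatives run for this comparison. Of the 10 genes 5 passed there: Asns (0.69, adjusted p = 0.0260), Atf3 (0.81, adjusted p = 0.00166), Atf4 (0.39, adjusted p = 0.00291), Ddit3 (0.36, adjusted p = 0.00319) and Xbp1 (0.47, adjusted p = 0.0408). Asns was thus the 1 gene called against both sets of 4 arrays. The count over all genes against replicates 5 to 8 is not given here. The 4 and 5 calls are therefore not set against each other.

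The 23-week groups asked whether these genes moved before or at the onset of proteinuria. Between 16 weeks and 23 weeks without proteinuria 0 of the 10 were called by limma, 0 of 10 had an unadjusted p under 0.05, and 0.0182% of all genes were called. Onset kidneys compared with non-proteinuric kidneys at 23 weeks gave no call either, as 0 of 10 were called (2.09% of all genes) and 1 gene, Asns, had an unadjusted p under 0.05. Against 16 weeks, onset kidneys gave 0 of 10 calls (1.99% of all genes), and Asns again was the 1 gene with an unadjusted p under 0.05. The share of all genes with an unadjusted p under 0.05 is not given here, so these unadjusted counts describe the 10 genes only. Array weights gave 3 calls in the comparison of 23 with 16 weeks (Atf3, Ddit3 and Herpud1, each lower) and 3 in that of onset with 16 weeks (Asns higher, Ddit3 and Herpud1 lower). Under array weights 3697 and 2662 of all 16475 genes were called in these comparisons, in that order.

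Asns had mean levels of 6.03 ± 0.17 (SD, n = 8), 6.18 ± 0.22 (n = 11), 6.51 ± 0.50 (n = 6) and 6.81 ± 0.41 (n = 10) in the order 16 weeks, 23 weeks, onset and 36 weeks. No neighbouring pair in that order passed (adjusted p = 0.852, 0.249 and 0.267), while the ends did. Herpud1 stepped down in the same order, at 11.52 ± 0.50, 11.34 ± 0.24, 11.15 ± 0.37 and 10.95 ± 0.39, and again no neighbouring pair passed (adjusted p = 0.845, 0.561 and 0.519). Onset replicate 5 had the highest Asns (7.47) and Atf4 (10.12) of its group and its lowest Herpud1 (10.63) and Dnajc3 (9.06).

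Kidneys at 36 weeks were also compared with both 23-week groups. Against 23 weeks without proteinuria 6 of the 10 genes rose (9.52% of all genes) and 1 fell (13.5%). Atf3 moved furthest, from 5.66 through 5.81 to 6.12 at 23 weeks to the 36-week range given above, a rise of 0.83 ± 0.13 (adjusted p = 2.31e-05). Asns rose by 0.63 ± 0.14 (adjusted p = 0.00114), Xbp1 by 0.35 ± 0.10 (adjusted p = 0.0133) and Trib3 by 0.15 ± 0.05 (adjusted p = 0.017). Ddit3 rose by 0.30 ± 0.06 (adjusted p = 0.000847) and Atf4 by 0.29 ± 0.06 (adjusted p = 0.000758), and all 10 nephritic samples lay above the 23-week mean for each. Dnajc3 fell by 0.30 ± 0.07 on the log2 scale (adjusted p = 0.00203), and Herpud1, at -0.39 ± 0.16, did not pass (adjusted p = 0.0684). With the Gapdh signal as a covariate 4 of these 7 calls were kept, and Asns (adjusted p = 0.0719), Xbp1 (0.0757) and Dnajc3 (0.0513) did not pass. Over all genes that covariate left 1219 calls, against 3791 in the main fit.

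Against onset, 3 of the 10 genes rose, where 0.571% of all genes did so: Atf3 by 0.54 ± 0.15 (adjusted p = 0.0461), Atf4 by 0.30 ± 0.07 (adjusted p = 0.0307) and Ddit3 by 0.29 ± 0.08 (adjusted p = 0.0388). Xbp1, the other transcription factor gene of the 10, had a change of 0.16 ± 0.12 that did not pass (adjusted p = 0.421). Onset kidneys had Atf4 at 9.80 to 10.12, Ddit3 at 7.95 to 8.28 and Atf3 at 5.80 to 6.47, each overlapping the 36-week range. These calls were the least firm of the NZB/W set, as the count was 0 on leaving out onset replicate 1, 2, 3, 4 or 6, 1 without 36-week replicate 4 or 5, and 5 without onset replicate 5. Over all genes the count, 382 in the main fit, moved in the same refits. It was 48, 19, 94, 121 and 60 without onset replicates 1, 2, 3, 4 and 6. It was 96 and 93 without 36-week replicates 4 and 5, and 2008 without onset replicate 5. Atf3 alone lost its call on leaving out any of 22 samples (adjusted p up to 0.125). The count among the 10 genes was also 0 with the hybridization controls as a covariate. These spiked controls were at 9.97 ± 0.204 on onset arrays (n = 6), 9.63 ± 0.371 at 36 weeks (n = 10) and 9.29 ± 0.180 at 23 weeks without proteinuria (n = 11). The comparisons within NZB/W share samples, so their lists of calls are not independent of each other.

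**Figure D2:**
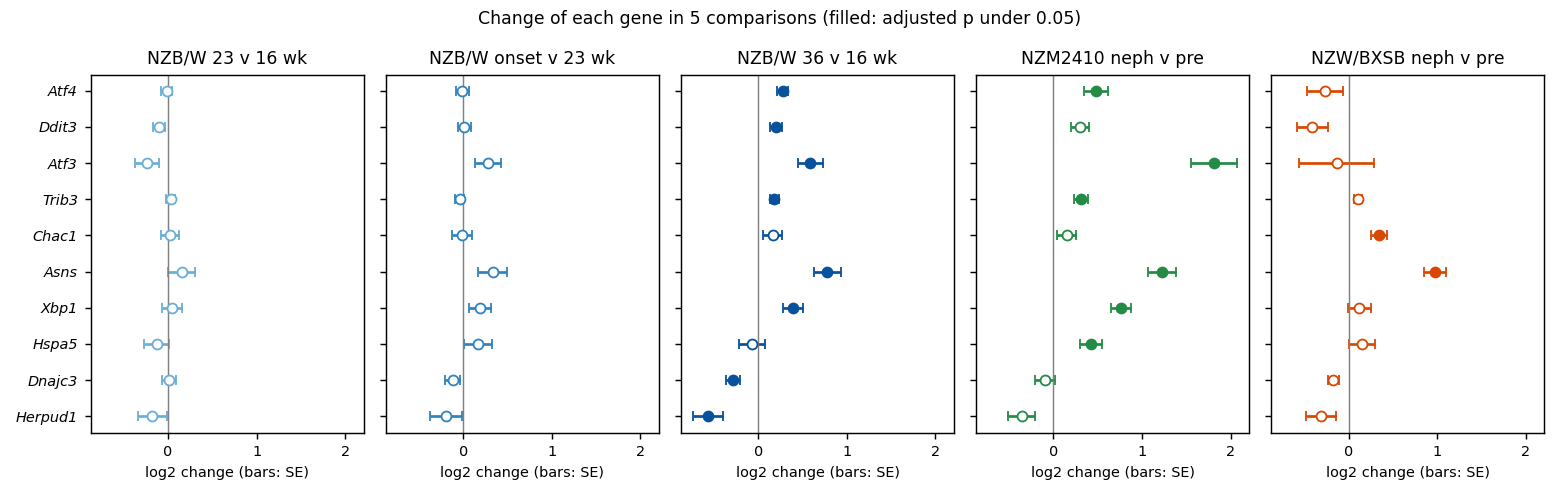
Log2 change of each gene (horizontal axis) ± standard error in 3 NZB/W comparisons and in NZM2410 and NZW/BXSB, with filled points for an adjusted p under 0.05. No point is filled in the 2 panels on 23-week kidneys, 8 are filled at 36 weeks, 6 in NZM2410 and 2 in NZW/BXSB, and Asns is filled in each of the last 3 panels.

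In NZM2410, nephritic kidneys had higher levels of 6 of the 10 genes than prenephritic kidneys, where 11.4% of all genes rose, and 0 of 10 fell, where 13.8% did. The median change of the 10 was 0.37, and that of all genes was -0.01. Atf3, Asns and Xbp1 did not overlap between the groups. How many of all genes did not overlap was not counted, so this describes the values of these genes only.

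Atf3 was at 5.98, 5.73, 5.76, 5.89 and 5.91 in prenephritic and at 7.70, 7.27, 7.82, 6.85 and 8.69 in nephritic NZM2410 kidneys. Every nephritic sample was well above the highest prenephritic one, and the rise of 1.81 ± 0.26 (3.51-fold, adjusted p = 0.000575) was the highest of any of the 10 genes in the comparisons made. Asns was at 6.72, 6.79, 6.50, 6.69 and 6.40 and then at 8.0, 8.02, 8.04, 7.19 and 8.0. Nephritic replicate 4 stood apart from the other 4 samples, and the rise was 1.23 ± 0.16 (2.34-fold, adjusted p = 0.000334).

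Xbp1 was at 11.28, 11.22, 11.25, 11.11 and 10.91 in prenephritic and at 11.998, 11.67, 12.04, 11.69 and 12.17 in nephritic kidneys, a rise of 0.76 ± 0.11 (adjusted p = 0.000639). Of the plasma cell markers 7 of 10 rose in NZM2410, with Igkc up by 4.83 and Jchain by 3.81, and the mean level of the list was 6.06 to 6.25 on prenephritic and 6.77 to 7.61 on nephritic arrays. Hspa5 was at 11.47, 11.45, 11.59, 11.25 and 11.18 and then at 11.72, 11.57, 11.68, 11.82 and 12.26, and this was the 1 comparison of the 8 within strains in which it passed (0.42 ± 0.13, adjusted p = 0.0283). The 2 groups overlapped, and the call was lost without prenephritic replicate 4 (adjusted p = 0.0709) or 5 (adjusted p = 0.0634).

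Atf4 was at 9.94, 9.76, 9.64, 9.69 and 9.80 and then at 10.06, 10.16, 10.32, 9.91 and 10.78, a rise of 0.48 ± 0.14 (adjusted p = 0.0224). It missed the threshold without prenephritic replicate 3 (adjusted p = 0.0567) or 4 (0.0541) or nephritic replicate 3 (0.0542), and with the Gapdh signal as a covariate (0.0538). Trib3 was at 5.63, 5.69, 5.69, 5.72 and 5.95 and then at 5.96, 6.12, 6.09, 5.91 and 6.17, a rise of 0.31 ± 0.08 (adjusted p = 0.0119). Its groups met only at prenephritic replicate 5, which was above nephritic replicate 4.

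Ddit3 was at 7.99, 8.20, 7.90, 7.98 and 7.92 and then at 8.45, 8.27, 8.44, 7.93 and 8.39, and its change of 0.30 ± 0.10 missed the threshold (adjusted p = 0.0507). Nephritic replicate 4, the sample with the lowest Asns, Atf3 and Atf4 of its group, was also its lowest for Ddit3, and without it the change was 0.39 and passed (adjusted p = 0.00226). Herpud1 was at 11.26 to 11.41 in prenephritic kidneys and at 10.60, 10.64, 11.45, 10.90 and 11.34 in nephritic ones, a change of -0.36 ± 0.15 that did not pass (adjusted p = 0.112). Without nephritic replicate 3 it was -0.48 and passed (adjusted p = 0.0299). Chac1 (0.15 ± 0.11) and Dnajc3 (-0.09 ± 0.11) did not pass (adjusted p = 0.368 and 0.623).

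In NZW/BXSB, 2 of the 10 genes rose, Asns and Chac1, where 11.4% of all genes rose, and 0 of 10 fell, where 8.73% did. The median change of the 10 was -0.02, and that of all genes was -0.03. Asns ran from 7.32 through 7.45 to 7.79 in prenephritic and from 8.12 through 8.44 to 8.88 in nephritic kidneys. The groups did not overlap, a trait not counted over all genes, and the rise was 0.97 ± 0.12 (1.96-fold, adjusted p = 0.000443). Chac1 ran from 6.51 through 6.77 to 7.08 and from 7.06 through 7.09 to 7.23, a rise of 0.34 ± 0.09 (adjusted p = 0.0146) in which the groups met at 1 prenephritic sample. With array weights 4 genes passed, as Ddit3 (-0.52, adjusted p = 0.0205) and Dnajc3 (-0.16, adjusted p = 0.0330) were then called lower. That setting called 5898 of all 16475 genes.

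Atf3, Atf4 and Ddit3, which all rose in 36-week NZB/W kidneys and of which Atf3 and Atf4 rose in NZM2410, had changes below 0 here, none of which passed. Atf3 had a change of -0.13 ± 0.42 (adjusted p = 0.846), Atf4 of -0.27 ± 0.21 (0.385) and Ddit3 of -0.41 ± 0.17 (0.11). Ddit3 ran from 8.76 through 9.26 to 9.85 in prenephritic and from 8.61 through 8.89 to 9.14 in nephritic kidneys. Leaving out prenephritic replicate 4, the lowest of its group, gave a change of -0.51 that passed (adjusted p = 0.0386). Trib3 (0.10 ± 0.04, adjusted p = 0.11) and Dnajc3 (-0.17 ± 0.06, adjusted p = 0.0579) had 6 of 6 nephritic samples on 1 side of the prenephritic mean and did not pass. Xbp1 (0.12 ± 0.13), Hspa5 (0.15 ± 0.14) and Herpud1 (-0.31 ± 0.17) did not pass (adjusted p = 0.539, 0.478 and 0.205). Plasma cell markers rose for 2 of 10, with the mean level of the list at 7.52 to 8.71 on prenephritic and 8.30 to 9.25 on nephritic arrays.

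The wide standard error of Atf3 in NZW/BXSB came with a wide prenephritic group. Its 6 values were 6.90, 9.08, 8.33, 6.77, 9.64 and 7.68, against 7.66 to 8.12 in the 6 nephritic kidneys. Fos was at 8.06, 10.38, 10.76, 8.32, 10.16 and 8.70 in the same prenephritic samples, in that order, and Jun at 9.41, 10.60, 10.57, 9.36, 10.62 and 9.48. Replicates 2, 3 and 5 were thus high for all 3 genes and replicates 1, 4 and 6 low. Replicates 1, 2, 3 and 5 share a code in their titles that no nephritic sample carries. For these arrays title code and stage of disease cannot be told apart. Prenephritic replicates 4 and 6 each share a title code with a nephritic sample. Over the 12 NZW/BXSB arrays, after removal of group means, the correlation of Atf3 was 0.80 with Fos, 0.90 with Jun and 0.83 with Egr1, as a description of arrays that share a table. In NZB/W (35 arrays) the same values were 0.53, 0.61 and 0.53, and in NZM2410 (10 arrays) 0.30, 0.74 and 0.40. For Dusp1, which encodes a phosphatase, the 3 values were 0.60, 0.085 and 0.59 in the same order of tables. These immediate early genes were chosen after the values of Atf3 were seen. In NZM2410 nephritis Junb (1.5), Egr1 (1.69), Jun (1.09) and Fos (1.14) rose with Atf3 (adjusted p = 0.000186, 0.000779, 0.000393 and 0.0168). Of the other 3 immediate early genes measured, Ier2 rose (0.39, adjusted p = 0.0251), Dusp1 fell (-0.60, adjusted p = 0.0499) and Fosb did not pass (0.05, adjusted p = 0.708). In the 36-week NZB/W kidneys, set against the youngest NZB/W group with its uneven Fos levels, Dusp1 fell (-0.96, adjusted p = 0.0273). Junb, Egr1, Jun and Fos did not pass there (adjusted p = 0.116, 0.925, 0.762 and 0.811). Against the older non-proteinuric NZB/W group, Junb (0.77), Egr1 (1.60), Jun (0.88) and Fos (1.69) rose, as Atf3 did (adjusted p = 0.00466, 0.0120, 0.0118 and 0.00531). Dusp1 (0.15), Ier2 (0.47) and Fosb (0.05) did not pass against that older group (adjusted p = 0.798, 0.0639 and 0.731). In NZW/BXSB Junb, Egr1, Jun and Fos did not pass (adjusted p = 0.811, 0.511, 0.486 and 0.446).

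**Figure D3:**
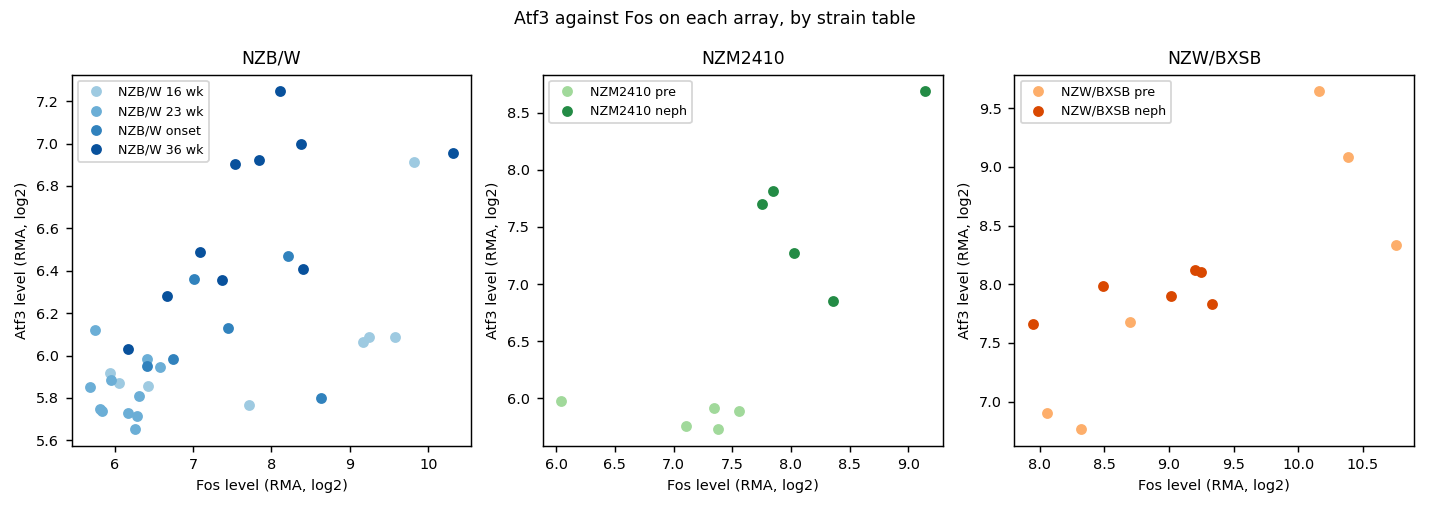
Log2 level of Atf3 (vertical axes) against that of Fos (horizontal axes), 1 point per array, in a panel for each strain. In NZB/W, 4 of the 16-week arrays lie at the right with Fos at 9.16 to 9.81, and in NZW/BXSB 3 prenephritic arrays have Atf3 above every nephritic array while the other 3 have it at 7.68 or lower.

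The change with nephritis was compared between strains through the changes within each table. Between NZM2410 and NZW/BXSB 3 of the 10 genes differed, where 1.94% of all genes had a higher change in NZM2410: Atf3 by 1.95 ± 0.49 (adjusted p = 0.0248), Ddit3 by 0.71 ± 0.20 (adjusted p = 0.0415) and Xbp1 by 0.64 ± 0.17 (adjusted p = 0.0303). Atf4 differed by 0.75 ± 0.25 and did not pass (adjusted p = 0.0789). Each of the 3 calls was lost with the Gapdh signal as a covariate (adjusted p = 0.0942, 0.0842 and 0.107). With that covariate 271 of all genes were called in either direction, against 911 in the main fit. Each was also lost with the shared title code as a random block (0.106, 0.168 and 0.0672). That block could be fitted in the NZW/BXSB table but not in that of NZM2410. Leaving out 1 sample lost the call of Atf3 for 1 sample, prenephritic NZW/BXSB replicate 2 (adjusted p = 0.0521), that of Xbp1 for 8 samples (up to 0.0625) and that of Ddit3 for 15 samples (up to 0.0851).

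Between NZB/W and NZM2410 the change of Atf3 differed by -1.22 ± 0.29 (adjusted p = 0.0376), lower in NZB/W, where 0.947% of all genes were lower. This call was lost on leaving out any of 9 samples (adjusted p up to 0.0934), among them 16-week replicate 5 (0.0656) and all 5 prenephritic NZM2410 samples in turn. Hspa5 (-0.50 ± 0.19, adjusted p = 0.177) and Xbp1 (-0.37 ± 0.16, adjusted p = 0.233) did not pass. Between NZB/W and NZW/BXSB 0 of the 10 genes were called by the test on limma's fits, where 5.77% of all genes were. Of the 10, 2 genes, Ddit3 and Atf4, had an unadjusted p under 0.05, a share not given here for all genes. The difference for Ddit3 was 0.61 ± 0.18 (adjusted p = 0.0615). For Asns the changes of 0.78, 1.23 and 0.97 gave differences of -0.45 ± 0.22, -0.20 ± 0.19 and 0.25 ± 0.20, of which none passed (adjusted p = 0.295, 0.565 and 0.502).

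The wider pathway was described with 7 lists of genes. Their counts are to be read against the shares of all genes, of which 11% rose and 15.3% fell in NZB/W, 11.4% rose and 13.8% fell in NZM2410, and 11.4% rose and 8.73% fell in NZW/BXSB. Among regulators downstream of ATF4 and CHOP, 7 of 15 rose and 1 fell at 36 weeks in NZB/W, 5 rose and 1 fell in NZM2410 and 5 rose in NZW/BXSB. Gdf15, which encodes a secreted stress cytokine, rose by 0.92 ± 0.26, 2.08 ± 0.31 and 1.02 ± 0.25 in that order (adjusted p = 0.00908, 0.000744 and 0.0126). Nupr1, a stress-induced chromatin protein, rose by 0.99 ± 0.18 in NZB/W and 0.79 ± 0.18 in NZM2410, and Cebpb, a partner of ATF4 at the C/EBP-ATF element, by 0.76 ± 0.18 in NZB/W. Eif4ebp1, a repressor of cap-dependent translation, rose by 0.63 ± 0.16 in NZM2410 and 0.53 ± 0.14 in NZW/BXSB, and Stc2, a stanniocalcin gene, by 0.49 ± 0.09 in NZW/BXSB. The lipoprotein receptor gene Vldlr fell by 0.57 ± 0.18 in NZB/W. The medians of this list were 0.16, 0.27 and 0.19.

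Genes of amino acid supply split in 2 directions. Of 15 measured, 7 rose and 4 fell in NZB/W, 5 rose and 3 fell in NZM2410, and 5 rose and 2 fell in NZW/BXSB, with medians of 0.16, 0.13 and 0.10. Mthfd2, the mitochondrial folate dehydrogenase, rose by 0.56 ± 0.10 in NZB/W and by 0.84 in both of the others (± 0.14 and ± 0.10, adjusted p = 6.71e-05, 0.00145 and 0.000379). Shmt2, the mitochondrial enzyme that stands 1 step before it in the folate cycle, fell by 0.66 ± 0.14, 0.87 ± 0.15 and 0.67 ± 0.12 on the log2 scale (adjusted p = 0.000656, 0.00125 and 0.00234). The glutamine transporter gene Slc38a2 rose by 0.69 ± 0.13 in NZB/W and 0.73 ± 0.18 in NZM2410, and Aldh18a1, of proline synthesis, by 0.78 ± 0.09 in NZW/BXSB. Slc3a2, the shared heavy chain of several amino acid exchangers, fell by 0.55 ± 0.13 in NZB/W. Of 12 proximal tubule markers 11, 10 and 3 fell in the 3 strains, with Gatm at -1.89 and -1.85 in NZB/W and NZM2410 and Slc13a3 at -0.51 in NZW/BXSB, and the part of this in the falls of Shmt2 and Slc3a2 was not tested.

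Of 12 tRNA synthetase genes, which load amino acids onto tRNA, 1 rose in NZB/W, near the share of all genes, 3 rose and 1 fell in NZM2410, and 5 rose in NZW/BXSB. Lars1 rose in each, by 0.30 ± 0.10, 0.35 ± 0.11 and 0.30 ± 0.07, and Sars1 rose by 0.32 ± 0.09 in NZM2410 and 0.28 ± 0.07 in NZW/BXSB, the strain in which Aars1 rose by 0.28 ± 0.05. Nars1 rose by 0.29 ± 0.08 in NZM2410. Of 12 sensors, eIF2alpha kinases and phosphatase subunits, 1 rose and 2 fell in NZB/W, also near that share, 3 rose and 1 fell in NZM2410, and 2 rose and 1 fell in NZW/BXSB. Eif2ak2, the kinase PKR that is activated by viral RNA and induced by interferon, rose in each strain, by 0.28 ± 0.08, 0.49 ± 0.12 and 0.35 ± 0.10 (adjusted p = 0.00871, 0.0103 and 0.0237). Eif2ak3, the ER kinase PERK, rose by 0.32 ± 0.08 in NZM2410, and Eif2ak1, the haem-regulated kinase, fell by 0.16 ± 0.05 in NZB/W and 0.34 ± 0.07 in NZM2410. Mbtps1, the protease that releases ATF6, fell by 0.37 ± 0.11 in NZB/W. In NZW/BXSB Atf6b rose by 0.41 ± 0.11, and Ppp1r15b, a phosphatase subunit that reverses the eIF2alpha mark, fell by 0.32 ± 0.09.

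Chaperones and folding enzymes of the ER were called about as often as all genes in NZB/W, as 2 of 20 rose and 3 fell, with the lectin chaperone Canx at -0.29 ± 0.09, the disulphide isomerase Pdia3 at -0.19 ± 0.07, the prolyl isomerase Fkbp2 at -0.23 ± 0.08 and Txndc5, a disulphide isomerase, at 0.24 ± 0.08. In NZM2410 3 rose and 1 fell, with Manf at 0.49 ± 0.14, Dnajb9 at 0.35 ± 0.11 and Fkbp11 at -0.29 ± 0.08. In NZW/BXSB 4 rose and 1 fell, with the cyclophilin Ppib at 0.36 ± 0.06, Txndc5 at 0.35 ± 0.07 and the chaperone Hyou1 at -0.28 ± 0.09. The medians were 0.06, 0.11 and 0.16.

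ER-associated degradation, the process in which Herpud1 acts, had 5 of 17 genes higher and 2 lower in NZB/W, 1 higher in NZM2410 and 0 in NZW/BXSB. Derl3 rose by 0.50 ± 0.12, the ubiquitin ligase gene Syvn1 by 0.30 ± 0.10 and Edem1, which picks glycoproteins for disposal, by 0.27 ± 0.06 in NZB/W. Ube2j1 rose by 0.24 ± 0.08 in NZM2410. Of 13 translocation genes 0 rose and 1 fell in NZB/W, 4 rose and 1 fell in NZM2410, and 7 rose and 1 fell in NZW/BXSB. Sec62 was lower in NZB/W (-0.43 ± 0.10) and NZM2410 (-0.39 ± 0.07), and the channel genes Sec61a1 (0.30 ± 0.06) and Sec61b (0.28 ± 0.09) and the associated Ssr2 (0.30 ± 0.06) rose in NZW/BXSB. In NZM2410 Spcs3, of the signal peptidase, rose by 0.35 ± 0.11 and Sec63 by 0.34 ± 0.10.

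**Figure D4:**
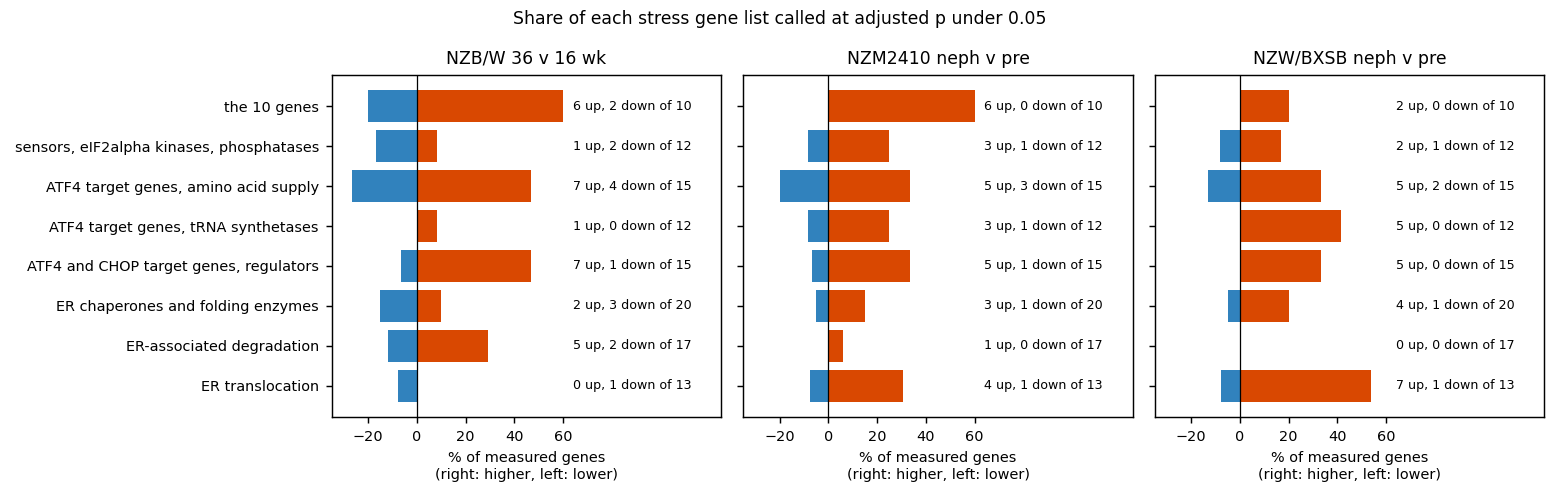
Share of the measured genes of each list that rose (right of 0) or fell (left of 0) at an adjusted p under 0.05, in percent, for 36-week NZB/W, NZM2410 and NZW/BXSB nephritis, with the counts beside each bar. Regulators downstream of ATF4 and CHOP have 5 to 7 rises of 15 in each strain, and translocation genes have 0, 4 and 7 rises of 13, where 11%, 11.4% and 11.4% of all genes rose.

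Among themselves the 10 genes did not move as 1 unit from array to array. Over all 45 pairs, after removal of group means, the median correlation was 0.10 in NZB/W (35 arrays), 0.47 in NZM2410 (10 arrays) and 0.28 in NZW/BXSB (12 arrays), with 30, 38 and 29 pairs above 0. Trib3 and Chac1 had the highest value of any pair in NZB/W, 0.69, with 0.88 and 0.58 in the other tables. Atf3 and Atf4 were at 0.43, 0.91 and 0.73, and Hspa5 and Xbp1 at 0.45, 0.70 and 0.56. Trib3 and Dnajc3 were at -0.27, -0.60 and 0.50, so that the sign differed between tables.

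The genes most like each member over the 35 NZB/W arrays named its neighbours for some members. Hspa5 was most like Creld2 (0.82), Cacybp (0.81) and Manf (0.81), and the pair with Creld2 was at 0.87 and 0.93 and that with Manf at 0.96 and 0.89 in NZM2410 and NZW/BXSB. Creld2 and Manf encode ER-resident proteins known to be induced by ER stress. Xbp1 was most like Arg2 (0.84), Dnajb9 (0.80), a BiP cochaperone, and Pcgf5 (0.78). Dnajc3 was most like Derl2 (0.75), of ER-associated degradation, Serp1 (0.75), a ribosome-associated ER protein, and Ddc (0.74). Their values with Dnajc3 were 0.64, 0.48 and 0.42 in NZM2410 and 0.42, 0.46 and -0.30 in NZW/BXSB. Atf3 was most like Junb (0.73), the chemokine Cxcl2 (0.72) and Lnx2 (0.71), of which Lnx2 was at -0.40 and 0.00031 in the other tables.

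For other members the leading genes were of other kinds. Herpud1 was most like Errfi1 (0.90), Ndel1 (0.90) and Rnf186 (0.84), with 0.48, 0.75 and 0.54 in NZM2410 and 0.79, 0.68 and 0.72 in NZW/BXSB. Asns was most like Serpinb6a (0.85), Cyp4v3 (0.83) and Clca3a1 (0.82), with 0.92, 0.87 and 0.32 in NZM2410 and 0.63, 0.50 and 0.33 in NZW/BXSB. Atf4 was most like Nubp1 (0.80), Jmjd6 (0.75) and Sptlc2 (0.74), with 0.76, 0.79 and 0.58 in NZM2410 and -0.17, 0.94 and 0.40 in NZW/BXSB. Ddit3 was most like Rasa1 (0.70), Cmc1 (0.69) and Txnrd3 (0.68), with 0.70, 0.69 and 0.39 in NZM2410 and 0.11, 0.37 and 0.37 in NZW/BXSB. Trib3 was most like Pde10a (0.77), Tmem198b (0.70) and Epha2 (0.70), with 0.84, 0.45 and 0.70 in NZM2410 and 0.09, -0.38 and -0.13 in NZW/BXSB. Chac1 was most like Mybl2 (0.73), Esrrb (0.72) and Nfkbib (0.72), with 0.82, -0.41 and 0.44 in NZM2410 and 0.04, -0.68 and -0.40 in NZW/BXSB. These values are descriptions of arrays that share a table, its normalization and their groups.

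Other cells and injury moved with the same groups. All 12 phagocyte markers rose in NZB/W at 36 weeks and in NZW/BXSB, and 11 of 12 in NZM2410, with Cd14 at 3.12 there and C1qc at 2.56 in NZB/W. All 10 tubular injury markers rose in each strain, with Lcn2 at 4.04, 5.16 and 4.40. T cell markers rose for 6, 3 and 1 of 7, with Cd3g at 1.36, 1.21 and 0.80, and B cell markers for 4, 1 and 0 of 5. Distal nephron markers fell for 5, 2 and 3 of 7, with Calb1 at -1.40, -1.85 and -0.97, and 1 rose in NZM2410. Glomerular and endothelial markers fell for 1, 7 and 2 of 8, with Emcn at -0.95 in NZM2410, and 1 rose in NZB/W. Of adrenal cortex and adipocyte markers 0 of 8 and 0 of 6 were called in each of these 3 comparisons, though the mean level of the adrenal list ranged from 5.33 to 10.48 over the 23-week arrays without proteinuria. At 36 weeks against those 23-week arrays, 7 of 8 adrenal cortex and 6 of 6 adipocyte markers fell, where 13.5% of all genes did. The medians of the 2 lists were then -2.31 and -0.79. Of 3 erythroid markers Slc4a1, a gene that the distal nephron also expresses, fell in each strain (-0.62, -0.62 and -0.87), and Alas2 rose in NZB/W (1.60). The part of these cells in the changes of the 10 stress genes was not tested.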

How the data were processed

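Whole-kidney RNA was labelled and hybridised to Affymetrix arrays, per the labels' protocols. The authors deposited log2 levels. RMA is the tool named in the submitters' processing notes, and it corrects background, normalizes between arrays and summarises probes. The version, array type, probe definition and genome build are not given in the sources used here. Each strain had its own deposited table of 16475 genes and 64 control rows. Gene IDs were matched to RefSeq on GRCm38.p6 (16229 matched), and promoter windows came from the same build.

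Values were tested as deposited with limma 3.58.1 (lmFit, then eBayes) under R 4.3.3. Each strain's table was fitted once with a mean for each group, and tests were two-sided with Benjamini-Hochberg adjustment over all genes. Changes were compared between strains with summed variances and Satterthwaite degrees of freedom. The fit was tested on simulated data. Alternatives were quantile normalization, genes above the authors' baseline only, the 2 groups alone, array weights, the shared title code as a random block, the replicate number as a block, the Gapdh 3' minus 5' signal and the hybridization controls as covariates, and each sample left out. The members, lists and tests were chosen with earlier results of these data known. All 10 members are named. Of each pathway list, the 4 called genes with the largest change in NZB/W (3 in the other strains) set which genes could be named, and of each marker list up to 2. The 3 genes most like a member are those with the highest Pearson correlation of deviations from group means over the NZB/W arrays. Same-numbered samples of different groups did not deviate together (median correlation 0.0649, 0.0189 and -0.165 in the 3 tables), so the numbers were not taken to pair samples. The lists held 10 symbols that were not measured. 1 gene of the pathway lists that could be named is not reported here.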

Additional observations from a re-analysis of the deposited data

Results flagged for a closer look

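8 of the 70 combinations of gene and group that were tested (groups of 5 to 10 samples) held a sample far from the others, and chance gives about 1 in 20. Asns stood high in 16-week replicate 1 (6.38) and in onset replicate 5 (7.47) and low in nephritic NZM2410 replicate 4 (7.19). Atf3 stood high in 16-week replicate 5 (6.91), and Atf4 in onset replicate 5 (10.12). Ddit3 stood low in onset replicate 3 (7.95), Trib3 high in prenephritic NZM2410 replicate 5 (5.95) and Dnajc3 low in 16-week replicate 3 (9.17). The change with nephritis differed between strains, by the test of the difference, for Atf3 between NZB/W and NZM2410 (-1.22) and, between NZM2410 and NZW/BXSB, for Atf3 (1.95), Ddit3 (0.71) and Xbp1 (0.64).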

How the results depend on the processing

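Over all refits, 30 called changes kept their direction, and 961 of 1086 refits kept the call. For the 80 changes not called, 49 of 3374 refits gained a call and 107 turned the sign. Calls were lost in 12 cases with the Gapdh signal, 9 with the title code as a random block, 7 with the 2 groups alone, 3 with the hybridization controls and 79 when leaving out 1 sample. The cause was not tested. Genes called of 10 at 36 against 16 weeks (8) were 4 against 16-week replicates 5 to 8 and 5 against replicates 1 to 4, both chosen after seeing the data and both with fewer samples, and 7 to 8 leaving out 1 sample. At 23 against 16 weeks and at onset against 16 weeks (0 each) array weights gave 3 each. At 36 against 23 weeks (7) the Gapdh signal gave 4. At 36 weeks against onset (3) the count was 0 with the 2 groups alone and with the hybridization controls, 1 with the title code and with the Gapdh signal, and 0 to 5 leaving out 1 sample. In NZM2410 (6) it was 4 to 7 leaving out 1 sample, and in NZW/BXSB (2) 4 with array weights and 2 to 3 leaving out 1 sample. Differences between NZB/W and NZM2410 (1) numbered 0 with the 2 groups alone and with the Gapdh signal, 0 against 16-week replicates 1 to 4, 6 with array weights and 0 to 2 leaving out 1 sample. Those between NZB/W and NZW/BXSB (0) numbered 1 after quantile normalization, 2 with array weights, 1 with the replicate block and 0 to 2 leaving out 1 sample. Those between NZM2410 and NZW/BXSB (3) numbered 5 with array weights, 0 with the title code, 0 with the Gapdh signal and 0 to 4 leaving out 1 sample. With the replicate number as a block, 3 member calls were lost: Ddit3 at 36 against 16 weeks (adjusted p = 0.0657), Hspa5 in NZM2410 (0.0719) and the difference of Xbp1 between NZM2410 and NZW/BXSB (0.0751). The title code could not be fitted as a random block in NZM2410, where 1 code is shared, and was not run there.

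Counts over all genes moved more. Leaving aside left-out samples, they ran from 1554 to 6542 (main 4338) at 36 against 16 weeks, 0 to 3697 (3) at 23 against 16 weeks, 114 to 2167 (345) at onset against 23 weeks, 31 to 2662 (328) at onset against 16 weeks, 1219 to 4730 (3791) at 36 against 23 weeks, 1 to 2352 (382) at 36 weeks against onset, 3216 to 6449 (4161) in NZM2410 and 2328 to 5898 (3319) in NZW/BXSB. Array weights gave the highest of each range but that of 36 against 23 weeks. For the differences between strains they gave 2732, 5419 and 4483 genes, in the order above (main 283, 951 and 911). The Gapdh signal gave 88 for NZB/W against NZM2410 and 271 for NZM2410 against NZW/BXSB. It also gave the 1219 at 36 against 23 weeks. Leaving out 1 sample gave 19 to 2008 genes at 36 weeks against onset. RMA levels carry no count of molecules, so no floor can be set, and low genes such as Trib3 may have compressed changes.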
